A study of Mus musculus with 12 samples.

Results

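The T cell receptor genes described here were 9 genes: Cd3d, Cd3g, Cd3e and Cd247, which encode the signalling chains of the receptor, the coreceptor genes Cd4 and Cd8a, the kinase genes Lck and Zap70, and the adaptor gene Lat. They are 9 of 21938 protein-coding genes on the assembled chromosomes of the GENCODE M21 annotation. They were selected on the presence, position and fold enrichment of MOF peaks, which were already known for these genes, so the position, fold enrichment and p-value of those peaks are given as a description and were not tested. A gene was given every peak that overlapped, by at least 1 bp, its body or the 3 kb on either side of any of its annotated start sites. By this rule 7 of the 9 genes held a MOF peak in Mof+/+ tissue and 0 of 9 in Mof+/- tissue. Among all protein-coding genes, 44.5% held a Mof+/+ peak and 1.89% a Mof+/- peak.

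MOF, also named KAT8, is an acetyltransferase of histone H4. On T cells, the antigen-binding receptor chains have almost no cytoplasmic part and signal through the CD3 chains and the zeta chain encoded by Cd247. When the receptor is engaged, LCK, which is carried by the coreceptors CD4 and CD8, phosphorylates tyrosines of these chains, ZAP70 docks on them, and ZAP70 then phosphorylates LAT, the scaffold on which the downstream enzymes gather. In visceral fat, T cells belong to the non-adipocyte fraction together with macrophages, B cells and other cells, and adipocytes themselves do not carry this receptor.

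Visceral white adipose tissue (WAT) was taken from C57BL/6 mice (C57BL/6J in the study's methods) at 8 weeks of age on a standard diet, wild type (Mof+/+) or heterozygous for a lost copy of Mof (Mof+/-). The labels describe 12 libraries in 6 groups, with 2 libraries per group, and either genotype has a group for input DNA, for histone H3 ChIP and for MOF ChIP. The processed data were 1 peak list per genotype, 19773 peaks for Mof+/+ and 731 for Mof+/-, and neither list carries a value per animal, so no spread between replicates is given here. Nuclei came from the whole tissue. The lists do not measure how much MOF was present, so they do not check the genotype labels. The labels name visceral white adipocytes, and 10 of 12 adipocyte marker genes held a Mof+/+ peak, all but Lep and Retn, against 44.5% of protein-coding genes. A peak over a start site was at 4 of the 12, or 33.3% against 31.9%, and the median of their strongest fold enrichment was 3.43 against 3.98. Since the tissue was measured in bulk, fewer cells of a type and less MOF per cell cannot be told apart in any difference between the lists.

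The promoter sequences show what kind of start sites these genes have, and they are printed because MOF peaks lay over some and beside others. They were read from RefSeq (GRCm38.p6), 5′ to 3′ on the strand of the gene, and hold only the bases upstream of the start that no GENCODE exon covers. Capitals mark CpG sites. The Cd3d stretch lies at chr9:44981536-44981785, Cd3g at chr9:44980432-44980681, Cd3e at chr9:45009628-45009861, the distal Lck promoter at chr4:129573642-129573891, the proximal Lck promoter at chr4:129558392-129558622, Lat at chr7:126369571-126369818 and the first Zap70 promoter at chr1:36761548-36761797.
Cd3d: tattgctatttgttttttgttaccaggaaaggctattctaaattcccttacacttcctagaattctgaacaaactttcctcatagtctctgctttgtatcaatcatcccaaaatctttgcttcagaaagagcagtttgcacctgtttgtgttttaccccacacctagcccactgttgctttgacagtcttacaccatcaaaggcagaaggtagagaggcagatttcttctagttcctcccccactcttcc
Cd3g: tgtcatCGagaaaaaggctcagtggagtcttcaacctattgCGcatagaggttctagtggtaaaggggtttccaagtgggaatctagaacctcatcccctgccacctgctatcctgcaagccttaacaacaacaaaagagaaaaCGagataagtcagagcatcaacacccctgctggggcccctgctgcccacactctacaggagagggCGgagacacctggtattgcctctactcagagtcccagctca
Cd3e: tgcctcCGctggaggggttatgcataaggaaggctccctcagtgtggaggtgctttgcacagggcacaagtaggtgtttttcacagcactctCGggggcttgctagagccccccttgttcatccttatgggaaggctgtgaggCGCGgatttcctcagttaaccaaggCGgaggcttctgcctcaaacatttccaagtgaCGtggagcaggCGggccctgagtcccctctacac
Lck distal: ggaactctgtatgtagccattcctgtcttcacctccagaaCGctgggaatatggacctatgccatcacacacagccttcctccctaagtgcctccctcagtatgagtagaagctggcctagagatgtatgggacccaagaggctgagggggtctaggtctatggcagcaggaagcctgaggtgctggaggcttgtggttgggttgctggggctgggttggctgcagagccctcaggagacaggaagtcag
Lck proximal: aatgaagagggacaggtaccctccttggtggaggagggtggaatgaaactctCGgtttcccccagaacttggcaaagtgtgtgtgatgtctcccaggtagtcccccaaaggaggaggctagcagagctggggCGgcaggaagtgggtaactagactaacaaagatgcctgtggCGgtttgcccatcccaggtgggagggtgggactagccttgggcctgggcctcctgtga
Lat: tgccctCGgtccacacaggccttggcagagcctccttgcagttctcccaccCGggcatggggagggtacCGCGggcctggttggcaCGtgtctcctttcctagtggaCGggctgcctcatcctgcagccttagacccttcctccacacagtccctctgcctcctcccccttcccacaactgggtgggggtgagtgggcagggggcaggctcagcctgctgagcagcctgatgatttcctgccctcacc
Zap70: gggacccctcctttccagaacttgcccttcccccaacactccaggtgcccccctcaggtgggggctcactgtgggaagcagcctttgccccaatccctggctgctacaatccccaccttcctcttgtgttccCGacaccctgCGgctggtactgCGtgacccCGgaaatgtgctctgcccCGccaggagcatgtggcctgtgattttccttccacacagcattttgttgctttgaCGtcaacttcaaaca

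Both Lck stretches lay wholly inside a Mof+/+ peak, and the one of Cd3e was reached by a peak at its downstream end. No peak covered those of Cd3d, Cd3g, Lat and Zap70. The Cd3d stretch holds 0 CpG sites and the distal Lck stretch 1, while the one of Cd3e holds 7.

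The 7 genes with a Mof+/+ peak held 18 distinct peaks between them, because 3 peaks lay near both Cd3d and Cd3g. Their fold enrichment over input at the summit, the highest point of a peak, ran from 2.26 to 5.75 with a median of 3.61, and the median over all Mof+/+ peaks was 3.4. Of the 18 peaks, 10 lay above and 8 at or below that median. The member peaks were 266 to 2749 bp wide with a median of 762.5 bp, against 609 bp over the list. Summits lay in an intron of the gene for 13 peaks, in an exon for 3 and outside annotated genes for 2. Taking the strongest peak of each gene, the median was 3.81 for the 7 members, against 3.98 over the 9773 protein-coding genes with a peak (quartiles 3.38 and 4.87), and 3 of the 7 lay above the latter.

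**Figure D1:**
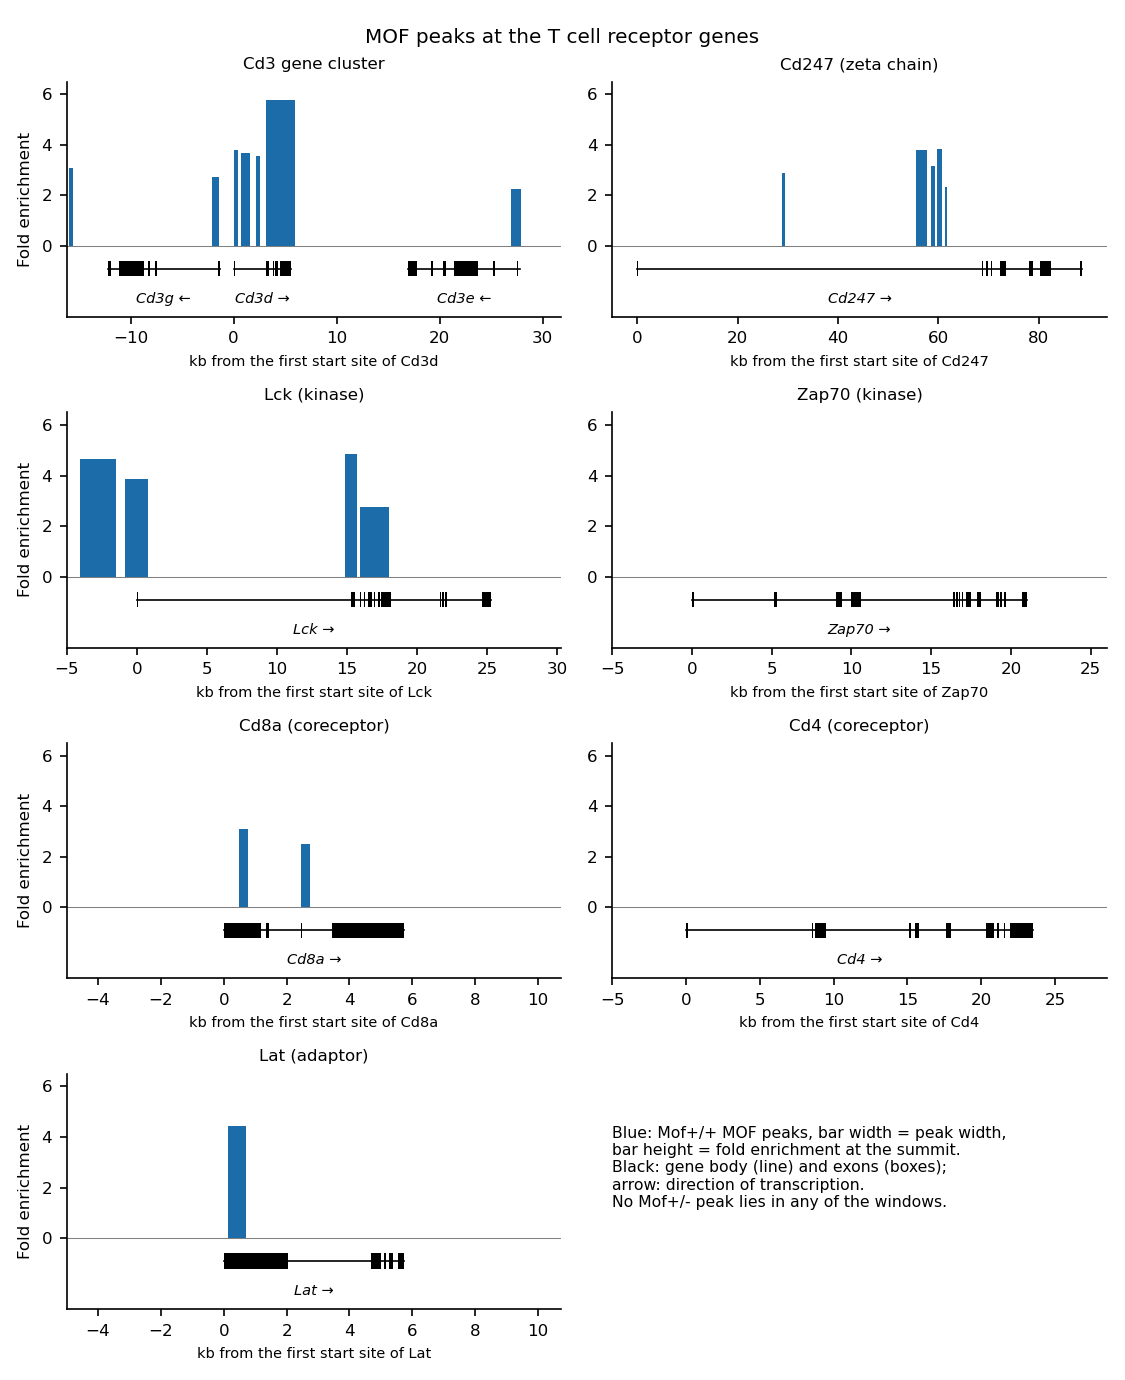
Maps of the 9 genes, with the distance from the first start site of the named gene on the x axis (kb, in the direction of its transcription) and fold enrichment of each Mof+/+ MOF peak on the y axis; bars span the peaks, black lines and boxes are gene bodies and exons. Peaks covered much of Cd3d, marked both ends of the first intron of Lck and sat far inside Cd247, and the windows of Cd4 and Zap70 held none.

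Cd3d and Cd3g encode the delta and gamma chains of CD3. They stand head to head on chromosome 9, Cd3d at chr9:44981786-44987339 on the plus strand and Cd3g at chr9:44969572-44980431 on the minus strand, with 1355 bp between their first start sites. The strongest member peak of all lay in the downstream part of Cd3d, at chr9:44984974-44987722. It had a fold enrichment of 5.75 and a −log10 p of 13.9, ranked 732 of 19773 by fold enrichment, and covered the later 2 of the 3 annotated Cd3d start sites. Its summit was in an untranslated stretch of a Cd3d exon.

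Upstream of it, 3 narrower peaks had their summits in Cd3d introns. The first, at chr9:44981851-44982186, began 65 bp downstream of the first start site and had a fold enrichment of 3.8. The second, at chr9:44982464-44983366, had 3.68 and the third, at chr9:44983983-44984331, had 3.54. Together with the strongest peak they spread over most of the 5554 bp of the gene without touching its first start site. On the other side of the shared promoter region, a peak at chr9:44979689-44980365 with a fold enrichment of 2.73 began 66 bp inside Cd3g, in its first part. Both promoter stretches printed above thus lay between peaks that started close to either gene's start. The first 2 Cd3d peaks also fell in the 3 kb window of Cd3g, and the Cd3g peak in that of Cd3d.

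Cd3e, the epsilon chain gene, lies in the same cluster at chr9:44998740-45009627 on the minus strand. Its 1 peak, at chr9:45008758-45009687, covered 3 of its 4 start sites but had the lowest fold enrichment of the 18, 2.26, with a −log10 q of 1.15. Of the whole Mof+/+ list, 99.4% of peaks had a higher fold enrichment. The input background at this summit, 6.96 fragments, was the highest among the member peaks. Its summit also lay in an exon of Gm48720, whose start site was nearer to it (526 bp) than any start of Cd3e (792 bp).

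Cd247 encodes the zeta chain and is by far the longest member, 88597 bp at chr1:165788681-165877277. It held 5 peaks, all with the summit in an intron of Cd247 and none near a start site of Cd247. The nearest summit to any Cd247 start site was 7745 bp away. One peak, at chr1:165817586-165818104, had a fold enrichment of 2.88 about 29231 bp into the gene. The other 4 were gathered between 55480 bp and 61790 bp from the first start, with fold enrichments of 3.81 at chr1:165844161-165846320, 3.15 at chr1:165847252-165847915, 3.81 at chr1:165848471-165849399 and 2.34 at chr1:165850047-165850478. Summits of these 4 peaks were nearest to starts of the predicted genes Gm32999, Gm37856 and Gm37469 inside the intron, 90 bp and 75 bp away for the peaks of 3.81. Whether the signal belonged to Cd247 or to these predicted genes was not tested. The 121 bases around the summit of the peak at chr1:165848471-165849399 (chr1:165849059-165849179, plus strand, CpG in capitals) show a stretch with 2 CpG sites and no RGCY site.
Cd247 intronic summit: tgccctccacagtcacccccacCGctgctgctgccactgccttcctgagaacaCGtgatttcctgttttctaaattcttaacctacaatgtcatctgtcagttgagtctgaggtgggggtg

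The coreceptor genes differed in the list. Cd8a, at chr6:71373427-71379173, encodes the alpha chain of CD8 and held 2 narrow peaks. The one at chr6:71373927-71374192 had a fold enrichment of 3.1 and began 500 bp downstream of the first start site. The one at chr6:71375892-71376169 had a fold enrichment of 2.51, with a −log10 q of 1.12. Neither covered a start site, and both were below the list's median of 3.4. Cd4, at chr6:124864692-124888221, held none. The nearest Mof+/+ peak to Cd4 was 15562 bp from the gene, at chr6:124903783-124904251 at Lag3, a neighbouring gene whose product binds the ligand of CD4, and had a fold enrichment of 3.09. Of all protein-coding genes, 55.5% held no Mof+/+ peak under the same rule, so a gene without one was the more common case.

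Lck is transcribed from a distal and a proximal promoter, and the list held peaks at both. The gene lies at chr4:129548344-129573641 on the minus strand. At the proximal promoter, the peak at chr4:129557958-129558805 had a fold enrichment of 4.87 and a −log10 p of 10.5, covered 3 start sites, and had its summit 194 bp upstream of the nearest one, inside the proximal stretch printed above. Only 10.4% of the Mof+/+ peaks had a higher fold enrichment. Next to it a peak at chr4:129555644-129557690, with a fold enrichment of 2.74, covered 3 further internal starts and the microRNA gene Mir8119. At the distal promoter, the peak at chr4:129572807-129574458 had a fold enrichment of 3.86, covered the first start site and had its summit 681 bp upstream of it.

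Another Lck peak lay upstream of the gene body, at chr4:129575123-129577670. Its fold enrichment was 4.65 and its −log10 p of 10.7 was the second highest among the 18 peaks. It was given to Lck only through the 3 kb window, and also overlapped the downstream end of Fam167b, the neighbouring gene. Its summit was 1725 bp from the distal Lck start, the nearest start site of any gene. The 121 bases around that summit (chr4:129575306-129575426, minus strand) hold 1 CpG site and 4 RGCY sites.
Lck upstream summit: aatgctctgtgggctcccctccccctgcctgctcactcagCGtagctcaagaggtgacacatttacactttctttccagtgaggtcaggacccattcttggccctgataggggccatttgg

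Zap70, at chr1:36761798-36782818, encodes the kinase that acts after LCK and held no peak. The nearest Mof+/+ peak was 51892 bp away, at chr1:36709492-36709906. Lat, at chr7:126363824-126369570 on the minus strand, held 1 peak, at chr7:126368877-126369433. Its fold enrichment was 4.42 and its −log10 p 8.9, and 17.3% of the list had a higher fold enrichment. It began 137 bp downstream of the first start site and covered 1 of 6 annotated starts, with its summit in an exon.

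**Figure D2:**
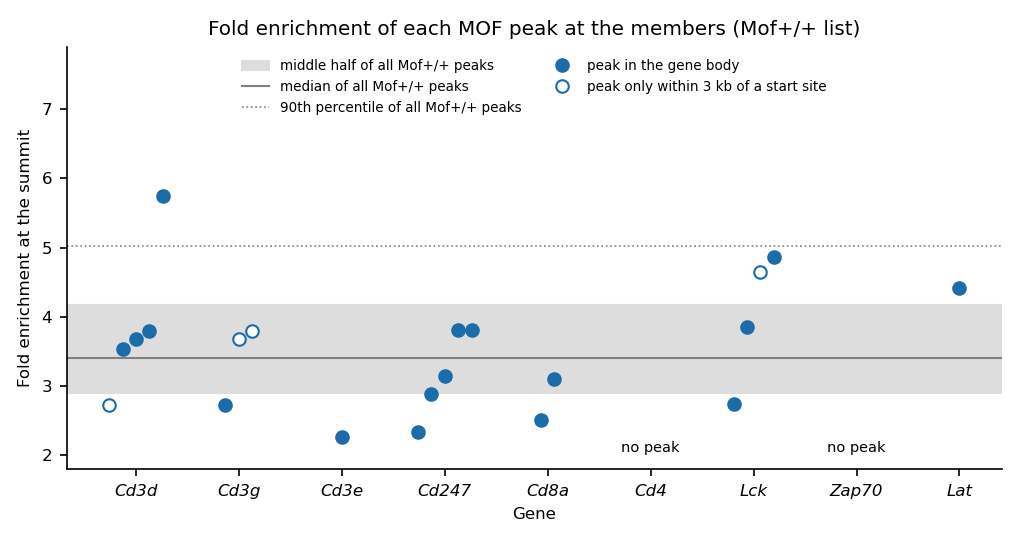
Fold enrichment at the summit (y axis) of every Mof+/+ peak at each gene (x axis); filled points lie in the gene body and open points only in the start-site window, and the shaded band and lines give the quartiles, median and 90th percentile of all Mof+/+ peaks. Only 1 point, at Cd3d with 5.75, lies above the 90th percentile of 5.02; peaks shared by Cd3d and Cd3g are drawn at both.

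A peak lay over at least 1 annotated start site for 4 of the 9 genes (Cd3d, Cd3e, Lck and Lat), against 31.9% of protein-coding genes. Among genes with a peak, these were 4 of 7 members and 71.5% of all protein-coding genes. At Cd3d, Cd3g and Lat the peaks began within 137 bp downstream of the first start and ran into the gene. With the gene body left out and only the 3 kb around start sites kept, 6 of 9 members held a peak, Cd247 being lost, against 42.8% of protein-coding genes. Members with 2 or more peaks numbered 5 of 7, against 39.2% of protein-coding genes with a peak, and those with 5 or more were Cd3d and Cd247, against 6.49%.

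Among peaks that a gene held only through the 3 kb window, the farthest was the second Cd3d peak, which began 2033 bp from the first start of Cd3g. Among the peaks left out, those nearest to a member lay beyond the 3′ end of its body. A peak at chr9:44965808-44966237 at Ube4a (fold enrichment 3.09) lay 3335 bp from Cd3g, and one at chr4:129542194-129543154 at Hdac1 (3.96) lay 5190 bp from Lck. No other member had a left-out peak within 7 kb of its body.

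Sequence was not used to choose the genes or their peaks. RefSeq promoters of 300 bases, from 250 before to 50 after the start, were matched by symbol for 8 of the 9 members, 11 promoters in all, and not for Cd4. All 11 were poor in CpG sites. They held between 1 CpG site (Cd3d) and 10 (Lat) with a median of 5, against a median of 14 over 20150 promoters of protein-coding genes. Promoters under a Mof+/+ peak had a median of 24 CpG sites and those under none a median of 7. The GC share of the member promoters was not low in the same way, with a median of 57.3% against 57% over all.

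Of the 11 member promoters, 3 lay under a Mof+/+ peak, those of Cd3e and both of Lck, or 27.3% against 32.5% of all promoters. Split by CpG content, the shares were as follows. Among promoters with 0 to 5 CpG sites, 4.2% lay under a peak, and of the 6 member promoters in that class 1 did, the proximal one of Lck. Among those with 6 to 10 CpG sites, 15% lay under a peak, and of 5 member promoters 2 did. Among those with 21 to 30 sites, which no member reached, the share was 56.7%. With 11 promoters, several of the same gene, these are counts and no test was made.

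**Figure D3:**
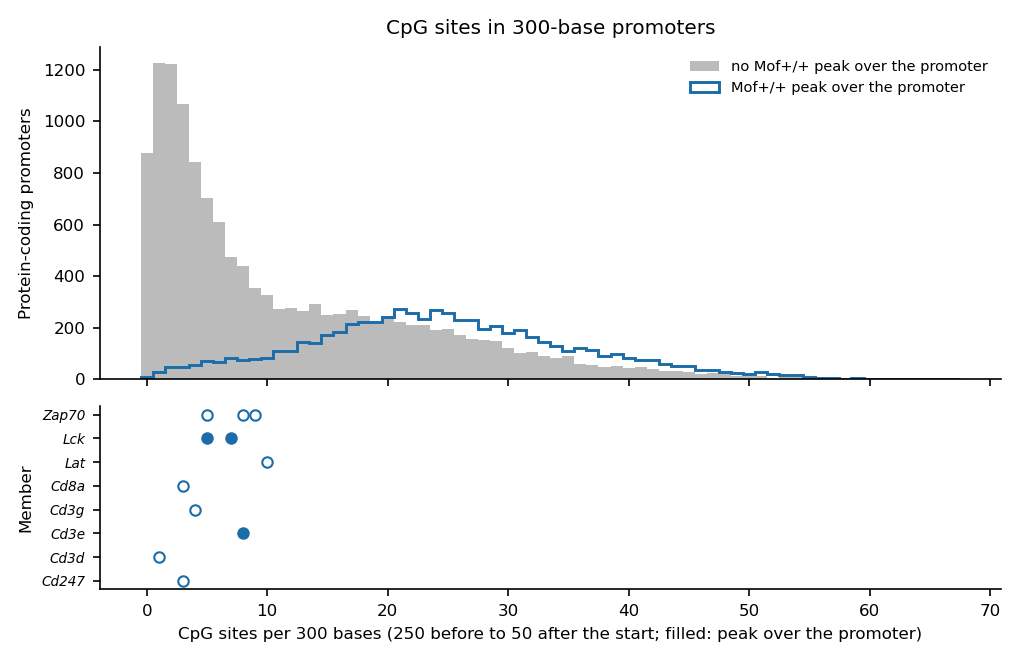
Number of CpG sites per 300-base promoter (x axis) for protein-coding promoters with and without a Mof+/+ peak over them (upper panel, number of promoters) and for the 11 member promoters (lower panel, one row per gene, filled where a peak lay over the promoter). All member promoters have 10 or fewer CpG sites, to the left of the bulk of the promoters under a peak, whose median is 24.

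The chromatin was cut in part with CviKI-1, which needs the sequence RGCY (R for a purine, Y for a pyrimidine), so the number of such sites bears on where fragments could form. Member promoters held 2 to 11 RGCY sites with a median of 8, against 7 over all promoters. Cd3d and Cd247 had the fewest, 2 and 3. In the 121 bases around the summits the median was 2 for the member peaks and 2 for all Mof+/+ peaks.

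Short motifs were counted on both strands, with no claim that a match is a binding site. GGAA, the core of ETS sites, was in 10 of 11 member promoters and 95.7% of all. The E box motif CANNTG was in 11 of 11 against 68.7%. The core of RUNX sites, TGTGGT, was in 3 of 11 against 14.7%, and the GATA motif GATAA in 2 of 11 against 22.1%. TGGGAA, an Ikaros core that contains GGAA, was in 6 of 11 against 24.3%. The Sp1-type motif GGGCGG was in 2 of 11 against 47.8%, and the TATA box sequence TATAAA in 0 of 11 against 12.1%. GGGCGG holds a CpG site itself, and the shares over all promoters were not matched for CpG content. The 11 promoters belong to 8 genes, so they are not independent counts. The cyclic AMP response element TGACGTCA was in 1 of 11, the first Zap70 promoter, against 2.31% of all, and stands near the 3′ end of the stretch printed above. At the 18 summits, GGAA was in 15 windows of 121 bases against 73.5% of all Mof+/+ summits, CANNTG in 6 against 41.4%, TGGGAA in 3 against 10.2%, TGTGGT in 1 against 8.3% and TATAAA in 1 against 3.9%. None of the 18 windows held GGGCGG, against 13.5% of all, none held GATAA, against 9.81%, and none held the cyclic AMP response element, against 0.208%.

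In Mof+/- WAT, none of the 9 genes held a peak and none of the 18 Mof+/+ peaks was overlapped by one. The nearest Mof+/- peak was 0.147 Mb from Cd247, 0.148 Mb from Cd4, 0.365 Mb from Cd3g, 0.378 Mb from Cd3d, 0.395 Mb from Cd3e, 0.417 Mb from Cd8a, 0.87 Mb from Lat, 3.51 Mb from Lck and 5.91 Mb from Zap70. These distances have to be read beside the lists as wholes. The Mof+/+ list is 27 times as long as the Mof+/- list, and 494 of its peaks (2.5%) were overlapped by a Mof+/- peak, so a gene set with no Mof+/- peak was near the background of 1.89%.

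The share of peaks that were also in the Mof+/- list depended on their strength. With the Mof+/+ list split by p-value into bins of 10%, 11.4% of the strongest bin were overlapped, 3.64% of the second bin, 2.53% of the third and 0.759% of the weakest. The member peaks were spread over these bins, with 1 in the first (the downstream Cd3d peak), 2 in the second (both at Lck), 4 in the third and 3 in the last. The weakest Mof+/- peak had a −log10 p of 4.72, against 3.25 for the weakest Mof+/+ peak, and 11 of the 18 member peaks passed the former. When the Mof+/+ list was cut to its strongest 731 peaks, the length of the Mof+/- list, none of the 9 genes kept a peak there either, against 3.67% of protein-coding genes. The strongest of the member peaks ranked 836 by p-value.

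**Figure D4:**
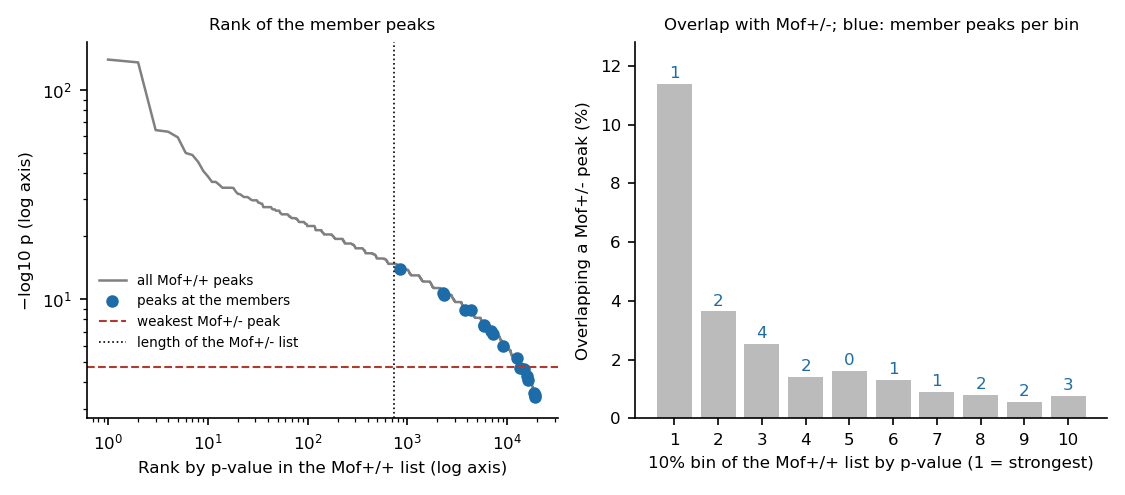
Left, −log10 p against rank in the Mof+/+ list, both on log axes, with the 18 member peaks in blue, the weakest Mof+/- peak as a dashed line and the length of the Mof+/- list (731) as a dotted line; right, the percentage of Mof+/+ peaks overlapped by a Mof+/- peak in each 10% bin of the list, with the number of member peaks in blue. All 18 member peaks rank below 731, and 11 lie above the dashed line.

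The counts behind these values were small. The fragments at the summit and the input background used by the peak caller could be solved for all 18 member peaks. Both came from the fold enrichment and p-value of each peak. That background need not be the input read at the place itself. It was the same lowest value, 3.52, at 6 of the 18 peaks and at 51.5% of all Mof+/+ peaks. Summits held 12 to 25 fragments with a median of 17, over a background of 3.52 to 6.96, and the median over the list was 16. At the downstream Cd3d peak 25 fragments stood over a background of 3.52, at the proximal Lck promoter 21 over 3.52, at Lat 19 over 3.52 and at Cd3e 17 over 6.96. The lowest background at any peak was 3.52 for Mof+/+ and 2.26 for Mof+/-, so the Mof+/- data were the shallower by a factor of 1.56 if that background follows depth. Scaled by this factor, 7 of the 18 summits would still hold the 11 fragments that were the fewest at a Mof+/- peak with the lowest background. Of all Mof+/+ peaks 36.7% would, and 5.25% of those were overlapped by a Mof+/- peak. That limit of 11 holds at the lowest background, which only 6 of the 18 member summits had. Summits with a higher background would need more fragments, so the count of 7 may be too high. Counting error was not included in the scaled numbers, and whether depth bears on the missing Mof+/- peaks was not tested. How many fragments the Mof+/- libraries held at any of the 18 places is not known from a peak list.

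The wider pathway was followed with 65 further genes in 6 role groups. Of these, 55 held a Mof+/+ peak (84.6%, against 44.5% of protein-coding genes) and 42 one over a start site (64.6%, against 31.9%). The median of the strongest fold enrichment per gene was 4.65, against 3.98 over protein-coding genes with a peak. The median length of these genes was 43 kb against 17.4 kb. Within 3 kb of start sites alone the count was 53 of 65, or 81.5% against 42.8% of protein-coding genes. The part of gene length in these counts was not tested.

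The constant genes of the receptor chains themselves were the group with the smallest share. Trac, the alpha chain constant gene, held 2 peaks, the stronger with a fold enrichment of 5.8. Trbc2 had 4.09 and Trbc1 3.1. These beta chain genes are near-identical copies, so reads inside them may be split and values there, such as that of Trbc1, are uncertain. The strongest of the 3 Trbc2 peaks, with 4.09, lay outside the gene body, and whether reads were split there was not tested. Trdc, Trgc1, Trgc2 and Trgc4, the constant genes of gamma delta receptors, held none. That made 3 of 7 genes, or 42.9% against 44.5% of protein-coding genes.

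Of 14 coreceptors, costimulators and surface regulators 10 held a peak, or 71.4% against 44.5% of protein-coding genes. The highest values were 5.75 at Cd27, a costimulatory receptor, 5.53 at Cd5, an inhibitory surface receptor, both in peaks that lay outside the gene body and within the 3 kb window, and 5.31 at Ptprc, which encodes the CD45 phosphatase that keeps LCK active and is carried by all leukocytes. Icos, Pdcd1, Trat1 and Sit1 held none. Cd8b1, the partner chain of Cd8a, had 2.77, the lowest value among the 10 genes with a peak. Its peak lay in the gene body, more than 3 kb from any start site.

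In the 4 other groups the shares stood against the same 44.5%, and their median gene lengths were 52.4 to 71.7 kb against 17.4 kb. All 11 kinases and phosphatases held a peak, led by Dgka (8.41), a diacylglycerol kinase that dampens the signal, Csk (6.64), the kinase that inhibits LCK, and Ptpn6 (5.97), the phosphatase SHP-1. Of 14 adaptors 12 did, led by Nck1 (6.19) and Grb2 (5.71), which couple receptors to the cytoskeleton and to RAS, and by Sla (5.31), which dampens receptor signals, and Themis and Sh2d1a did not. All 8 effectors did, led by Cblb (6.19), a ubiquitin ligase that restrains the receptor, Plcg1 (5.97), the lipase that LAT recruits, and Vav1 (5.75), an exchange factor. All 11 genes of the downstream group did, led by Rel (7.74), an NF-kappaB subunit, and by Nfatc1 and Nfatc3 (6.19 each), which are transcription factors activated by calcineurin. The strongest peaks of Ptpn6 and Vav1 lay outside the gene body, within the 3 kb window. Several of the genes with the highest values, such as Csk, Grb2, Nck1 and Plcg1, are used in most cell types and not in T cells alone.

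Rel was the only 1 of the 65 genes with a Mof+/- peak (1.54%, against 1.89% of protein-coding genes). That peak, at chr11:23769927-23770211, had a fold enrichment of 3.68 and 11 fragments at its summit. It lay inside the strongest Mof+/+ peak of Rel, at chr11:23769249-23771598, where 34 fragments gave a fold enrichment of 7.74. Raising the threshold to a q-value of 0.01 removed it.

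**Figure D5:**
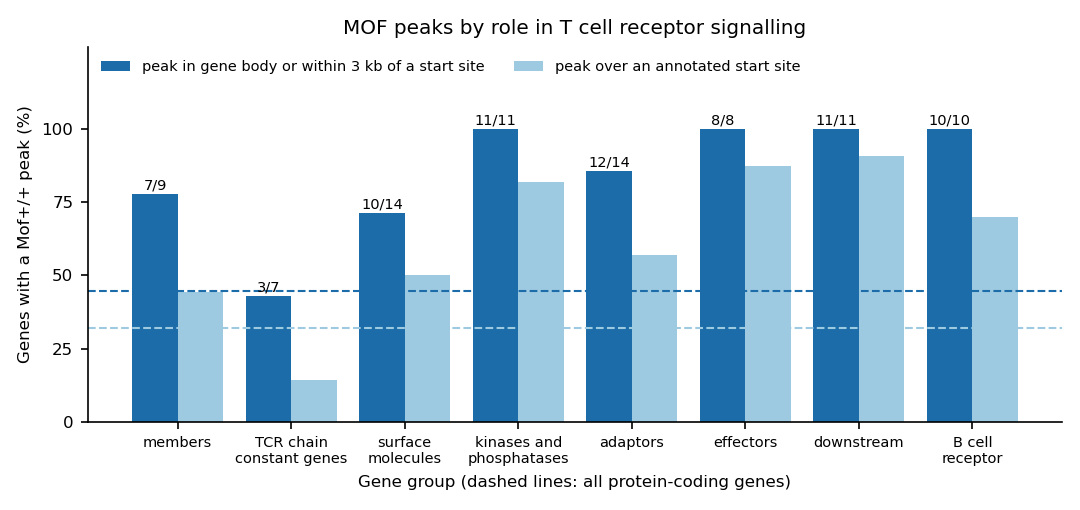
Percentage of genes (y axis) with a Mof+/+ peak by the gene rule (dark bars, with counts) and with a peak over a start site (light bars) for the members, the 6 role groups and the B cell receptor list (x axis); dashed lines give both shares over all protein-coding genes. The share is 100% for kinases and phosphatases, effectors, downstream genes and the B cell receptor list, and 42.9% for the chain constant genes, just under the dark line at 44.5%.

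The closest comparison is with the antigen receptor of B cells. All 10 genes of the B cell receptor list held a Mof+/+ peak, against 44.5% of protein-coding genes, and 0 a Mof+/- peak, against 1.89%, with a median strongest fold enrichment of 3.76, against 3.81 for the T cell receptor members. Among natural killer cell markers, which share signalling parts with T cells, 2 of 7 held a Mof+/+ peak, or 28.6% against the same 44.5%. No difference between these lists was tested, and the lists share no member.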

How the data were processed

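MOF ChIP-seq of Mof+/+ and Mof+/- WAT was analysed from the deposited peak lists, 1 per genotype. The authors mapped paired-end reads to GRCm38 with snakePipes and called peaks with MACS2 2.1.1.20160309.3 against input (q-value 0.1, bandwidth 200, mfold 5 to 500). Their methods describe merging of peaks within 1000 bp, yet 3796 neighbouring Mof+/+ peaks were still that close. Whether replicates were pooled is not given in the sources used here. H3 signal was not used here, and the antibody in the labels differs from those in the study's reporting summary. The design text speaks of 2 control and 3 Mof+/- animals, the labels of 2 libraries each, and the reporting summary of 2 littermates for either genotype.

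The deposited columns used were fold enrichment over input (a ratio), −log10 p-value and −log10 q-value, as the authors' peak caller wrote them, and the summit position as deposited, an offset of another unit (bp). Of each list 1 further value column was not used. Peaks were assigned to GENCODE M21 genes by position. Of 129 listed genes 126 matched by name and 3 by a RefSeq synonym. Fragments N and background L at a summit were solved from fold enrichment = (N + 1) / (L + 1) and the Poisson p-value within 0.001 of the −log10 p, which succeeded for 99.9% of Mof+/+ and 97.9% of Mof+/- peaks. Such counts carry counting error, and differences between animals or libraries cannot be seen from the lists. RefSeq promoters (GRCm38.p6) gave CpG and motif counts. The assignment and the solution were tested on simulated data. Python 3.11.15, pandas 2.3.3 and scipy 1.17.1 were used.

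All 9 members are named with each peak. Of the pathway list, up to 3 genes with the highest fold enrichment per role group are named, and each gene with a Mof+/- peak, and genes without a peak where they were 5 or fewer. Cd8b1 and the neighbouring genes at left-out peaks were named after their values were seen. Members and gene lists were chosen with earlier results of these data known. The lists carry no values per replicate, and signal tracks and reads were not used here, so no test was made and counts stand beside the share of all protein-coding genes. Other assignment regions, overlaps, thresholds and merging were tried as alternatives.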

Additional observations from a re-analysis of the deposited data

How the results depend on the processing

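The count of 0 members with a Mof+/- peak could not rise under these alternatives, since the nearest Mof+/- peak to any member was 146564 bp away and the widest window 5 kb, so its staying at 0 says nothing of stability. The count of members with a Mof+/+ peak stayed between 5 and 7 under 11 of 12. Under these 11 the share of all protein-coding genes with one ran from 34.2% to 45.5%. A q-value of at most 0.01 removed Cd3e, with 40.6% of protein-coding genes still holding a peak. A q-value of at most 0.001 (34.2%) or the p-value cutoff of the Mof+/- list (38.9%) also removed Cd8a. Keeping only as many Mof+/+ peaks as the Mof+/- list holds left 0 members and 0 member peaks. It left 11 of 65 pathway genes with a Mof+/+ peak, and 3.67% of all protein-coding genes. The 18 peaks at the members became 10 with start sites within 1 kb only, 10 at a q-value of at most 0.001, 11 with the p-value cutoff of the Mof+/- list and 10 once peaks within 1000 bp were merged. The pathway genes with a Mof+/- peak, Rel alone, became 0 with the q-value limit at 0.01 and 0 with it at 0.001. Of all protein-coding genes, 1.54% and 1.03% held a Mof+/- peak at these limits. The median fold enrichment of the strongest peak per member ran from 3.76 to 4.42 under its 5 alternatives. The lower counts at stricter thresholds follow from fewer peaks being kept.

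No paired analysis was possible because the columns of the 2 lists, 1 for either genotype, are not tied to replicates, and leaving out replicates could not be run for the same reason. A peak list holds no value where no peak was called, so it cannot show that MOF was absent from a gene. Summits of 12 to 25 fragments leave wide counting error.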

Other observations

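Other lists of cell type markers gave the following counts of genes with a Mof+/+ peak, which 44.5% of protein-coding genes held. Of 10 macrophage markers 1 held a peak, Cd68 with a fold enrichment of 5.75. Of 10 endothelial markers 3 did, led by Pecam1 (5.53), and of 6 mesothelial markers 1 did, Wt1 (4.42). The peaks of Cd68 and Pecam1 given here lay outside the gene body, within 3 kb of a start site. These genes were named after their values were seen, and no difference between lists was tested. A Mof+/- peak, which 1.89% of protein-coding genes held, was at 0 of the 10 macrophage markers, at Eomes among the natural killer cell markers, with a fold enrichment of 3.96, and at Wt1 among the mesothelial ones, with 5.52.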
